A study of Tribolium castaneum with 8 samples.

Results

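Whole-body RNA of pupae of the red flour beetle Tribolium castaneum was compared with whole-body RNA of embryos. Both libraries came from the laboratory strain GA-1, for which the labels give no treatment and no genetic change, and each stage had 1 library of polyadenylated RNA. The pupae were 3 days old and the embryos were 3 days old, and all stages were reared at 30 °C in whole wheat flour with 5% yeast. The labels do not say how many animals went into an RNA library, their sex, or whether an age in days is a point or a span. The series holds 4 RNA libraries, and the larval (about 20 days) and adult (3 days) libraries are used here only as side values, while 4 bisulfite libraries were not analysed here. The pupa library held 3.67 M unique reads in gene models and the embryo library 3.24 M, with medians of 86 reads per listed gene in the pupa library and 90 in the embryo library. Of 13635 genes with a read in either library, 12146 reached 1 RPKM (reads per kilobase of gene model, scaled to a common library total) in at least 1 of them and were compared. A further 1489 genes stayed under that level in both; the last gene inside the filter had 1.002 RPKM and the first outside had 0.9991. With 1 library per stage there is no replicate check, no p-value was computed, and every value describes these libraries.

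Embryo and pupa are the stages of a beetle's life that do not feed. In both, organs are built behind a closed cover: the embryo forms the larval body inside the egg, from maternal yolk, and the pupa breaks down larval tissue and forms the adult body, from stores laid down by the larva. Pulses of the steroid hormone ecdysone time the cuticles that are made in both stages. Juvenile hormone, a sesquiterpenoid, is known as the hormone whose presence holds back metamorphosis in larvae. Segmentation genes divide the early embryo along its length, and Hox genes give the segments their identities in embryo and adult.

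Genes were called higher where the ratio of (RPKM + 1), pupa over embryo, was at least 2, lower where it was at most the inverse, and equal where the 95% interval of the RPKM ratio lay wholly within 1.5-fold in either direction. By these rules 1969 of the 12146 genes were higher in the pupa library (16.2%), 1813 were lower (14.9%) and 2519 were equal (20.7%), while 8364 were within 2-fold (68.9%). At a 4-fold threshold 837 genes were higher (6.89%) and 526 lower (4.33%), and at 16-fold 135 were higher (1.11%) and 53 lower (0.436%). The median gene had a log2 ratio of -0.17, and rescaling by the median ratio moves the median over all genes up by 0.17, so the medians of gene groups given here are to be read against -0.17. Counts of gene groups are likewise to be read against the shares of all genes, 16.2% higher, 14.9% lower, 20.7% equal and 68.9% within 2-fold. The gene just inside the threshold had a log2 ratio of 1.00001 on the higher side and -1.0003 on the lower side, and the gene just outside 0.9994 and -0.9995. Genes of muscle, nerve, gut, epidermis and germline were read in both libraries, as whole bodies have them. In whole-body RNA, fewer cells of a type and less RNA per cell cannot be told apart.

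**Figure D1:**
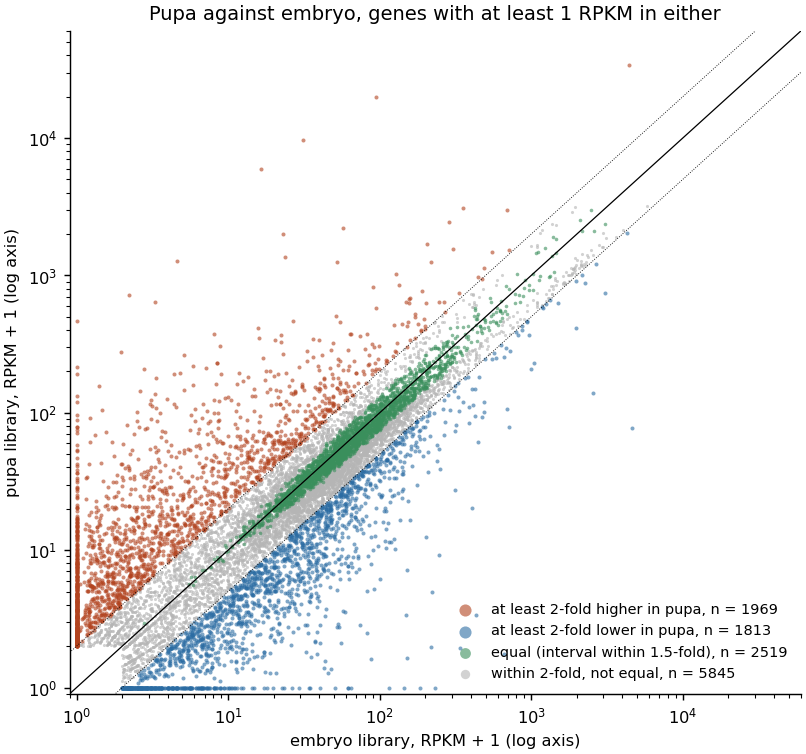
Each point is 1 gene, with RPKM + 1 in the pupa library on the vertical axis and RPKM + 1 in the embryo library on the horizontal axis, both logarithmic; the solid line marks equal levels and the dotted lines a 2-fold difference. The 2519 equal genes lie along the solid line, mostly above 20 RPKM, and 135 genes lie at least 16-fold above it and 53 at least 16-fold below it.

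Genes that separated the libraries had unlike levels in the other stages. The 837 genes at least 4-fold higher in the pupa library had median levels, in order of development, of 1.08 RPKM (embryo), 12.7 (larva), 18.2 (pupa) and 37.3 (adult). The 526 genes at least 4-fold lower in the pupa library had median levels of 24.1 RPKM (embryo), 2.05 (larva), 2.31 (pupa) and 3.63 (adult). The first group was thus low in the embryo library alone, by its median, and the second was high in the embryo library alone. Both medians for the pupa and the embryo follow from the threshold, while the larval and adult medians were not used to choose the genes.

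Several genes of the early ecdysone response were higher in the pupa library. Of 84 tested genes named for the ecdysone cascade, other hormones and metamorphosis, 22 were higher (26.2%, against 16.2% of all genes), 15 lower (17.9%, against 14.9%) and 7 equal, with a median log2 ratio of 0.16. With unrelated or distantly matched names left out, 19 of 55 were higher and 9 lower, with a median of 0.40. E75 (TC012440), a nuclear receptor induced early by ecdysone, had 222 RPKM in the pupa library and 52.4 RPKM in the embryo library, a ratio of 4.24 (95% counting interval 3.83 to 4.7, as are all intervals here). These intervals cover counting error only. E78 (TC003935), another nuclear receptor of the cascade, had 133 RPKM in pupae and 66 in embryos. Blimp-1 (TC014741), an ecdysone-induced repressor that in Drosophila delays the factor FTZ-F1, had 114 RPKM in pupae against 52 in embryos, with 3.09 in larvae and 7.51 in adults. Each of the 3 was at least 2-fold higher in the pupa library, E78 only just, with a ratio of 2.02 (1.73 to 2.36).

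Several models match the E74 family of ETS transcription factors, which in Drosophila act early in the ecdysone cascade. TC004816 had 114 RPKM in the pupa library and 28.3 in the embryo library, TC004814 had 103 RPKM in pupae and 31.3 in embryos, and TC004812 had 56.1 RPKM in pupae against 9.24 in embryos. All were called higher, and since the models lie under neighbouring numbers they may belong to 1 gene. HR38 (TC013146), an orphan nuclear receptor, had 17.8 RPKM in pupae and 5.65 in embryos.

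The rest of the cascade was split. HR46-like (TC008909), related to the Drosophila receptor HR3 that acts between the early and the late genes, had 323 RPKM in the pupa library and 462 in the embryo library, against 40.6 RPKM in larvae and 12 in adults. It was within 2-fold in pupa and embryo and far lower in the other stages. Broad-complex Z2 (TC012894), an isoform of a zinc-finger factor known for its role in the pupal stage, had 97.7 RPKM in pupae and 101 in embryos and was called equal. The broad Z1 model (TC012869) had 11.7 RPKM in pupae against 35.6 in embryos, 3.04-fold lower (2.25 to 4.16). The ultraspiracle model TC014027, for the partner of the ecdysone receptor, had 8.61 RPKM in pupae and 9.74 in embryos. The nuclear receptors also hold a model TC014027-GA, which can overlap it, so these values may not be the whole level of the gene. The receptors HR83 (TC010460), with 3.56 RPKM in pupae against 9.78 in embryos, and HR51 (TC009378), with 0 RPKM in pupae and 4.58 in embryos, were lower. Bursicon (TC013832), the neurohormone that triggers cuticle tanning after a moult, was lower as well, with 2.23 RPKM in pupae against 10.7 in embryos.

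The enzymes that make ecdysone from cholesterol did not move together. P450 302A1 (TC014691) had 60.4 RPKM in the pupa library and 53.7 in the embryo library, and P450 306A1 (TC001916) had 17.9 RPKM in pupae and 16.6 in embryos. P450 315a1 (TC014274), the product of shadow, had 12.7 RPKM in pupae against 13.4 in embryos. The first was called equal, and so was the second, while the third was 1.06-fold lower with an interval of 0.737 to 1.53, too wide for that call. P450 307A1 (TC004159), related to the Drosophila genes spook and spookier, had 21.2 RPKM in pupae and 43.7 in embryos. P450 CYP314A1 (TC011231), which turns ecdysone into the active 20-hydroxyecdysone in peripheral tissue, had 15.1 RPKM in pupae against 62.1 in embryos, 4.11-fold lower (3.27 to 5.22).

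Both genes named for the last steps of juvenile hormone synthesis were near 0 in the pupa library and high in the embryo library. Juvenile hormone acid methyltransferase (TC008471), which makes the methyl ester late in the hormone's synthesis, had 0.979 RPKM in the pupa library and 218 in the embryo library, 223-fold lower (75.9 to 1085). P450 15A1 (TC002551), the epoxidase of the same pathway, had 0.628 RPKM in pupae and 152 in embryos, 241-fold lower (93.9 to 888). These values rest on 3 pupal and 591 embryo reads for the methyltransferase and on 4 pupal and 853 embryo reads for the epoxidase. Enzymes that break the hormone down went in both directions. The juvenile hormone epoxide hydrolase TC003438 had 25.7 RPKM in pupae against 0.89 in embryos, and its relative TC003436 had 76.7 RPKM in pupae and 7.59 in embryos. A neighbouring hydrolase, TC003439, had 25.1 RPKM in pupae against 24.1 in embryos and was called equal. Juvenile hormone esterase (TC014795) had 20.4 RPKM in pupae and 67.9 in embryos, 3.32-fold lower.

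**Figure D2:**
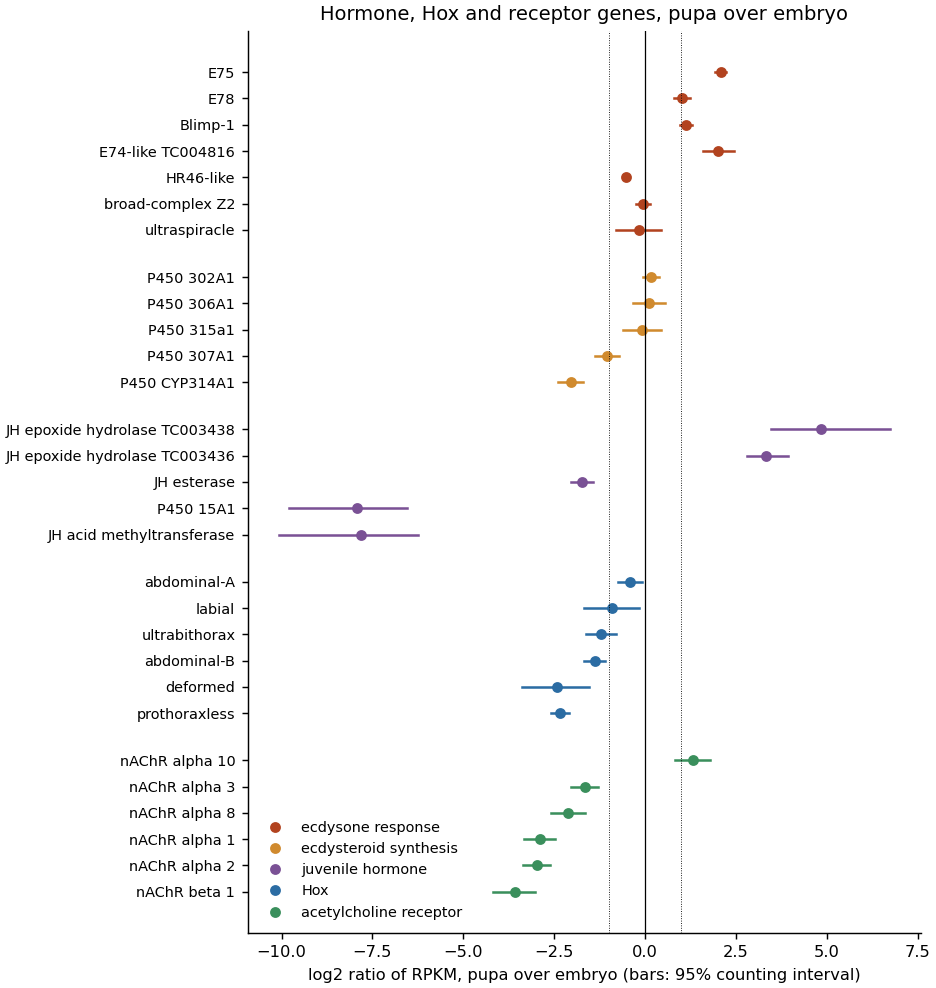
Points give the log2 ratio of RPKM, pupa over embryo, for 29 hormone, Hox and acetylcholine receptor genes, and bars give 95% counting intervals; dotted lines mark a 2-fold difference. E75 and the juvenile hormone epoxide hydrolases lie right of the 2-fold line, broad-complex Z2 and ultraspiracle lie near 0, and the juvenile hormone synthesis enzymes lie farthest to the left.

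Patterning genes of the embryo were lower in the pupa library as a group. Of 136 tested genes of the segmentation and Hox list, 5 were higher (3.68%, against 16.2% of all genes) and 72 lower (52.9%, against 14.9%). The median log2 ratio was -1.14, and 35 were at least 4-fold lower. Leaving out unrelated or distant names gave 3 higher and 64 lower of 94, with a median of -1.48. Gap and pair-rule factors, which divide the early embryo into regions and segments, were lower in 10 of 11 cases, and their RPKM summed to 32 in the pupa library and 168 in the embryo library. Krüppel (TC011460), a gap gene, had 1.51 RPKM in the pupa library and 32.9 in the embryo library, 21.7-fold lower (12.2 to 42.6). Hunchback (TC013553), another gap gene, had 1.44 RPKM in pupae and 15.3 in embryos. The pair-rule genes even-skipped (TC009469), with 0.523 RPKM in pupae against 10.4 in embryos, and runt (TC006542), with 1.72 RPKM in pupae and 18.9 in embryos, were lower too. Twist (TC014598), a mesoderm determinant, had 2.81 RPKM in pupae against 26.5 in embryos.

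Hox genes differed by less at their median. All 8 tested models of the Hox complex, zerknullt and its paralogue included, had less RPKM in the pupa than in the embryo library, 6 of them by at least 2-fold, and their RPKM summed to 91.2 in the pupa library and 230.4 in the embryo library. The summed level was 61.7 RPKM in the larval and 40.1 in the adult library. Prothoraxless (TC000912), the beetle's Antennapedia and a determinant of thoracic identity, had 14.6 RPKM in the pupa library and 73.3 in the embryo library, 5.02-fold lower. Ultrabithorax (TC000903) had 21.6 RPKM in pupae and 49.6 in embryos, and abdominal-B (TC000889) had 14.7 RPKM in pupae against 38.2 in embryos. Abdominal-A (TC000894), with 32.9 RPKM in pupae and 43.7 in embryos, was within 2-fold. The median log2 ratio of the Hox models was -1.56, and that of the gap and pair-rule factors was -1.98.

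Engrailed and invected, paired homeobox genes that mark the posterior compartment of segments and wings, were both within 2-fold. So were 59 of the 136 genes of the list, a smaller share than the 68.9% of all genes. With unrelated or distant names left out, 27 of 94 were within 2-fold. Invected (TC016368) had 229.5 RPKM in the pupa library and 125 in the embryo library, with 8.6 in larvae and 5.24 in adults. Engrailed (TC009896) had 25.8 RPKM in pupae and 36.2 in embryos.

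Of 50 tested neuroblast and proneural factors, which specify nerve cells, 2 were higher in the pupa library (4%, against 16.2% of all genes). A further 16 were lower (32%, against 14.9%). Of the list 32 were within 2-fold and 10 equal (20%), near the 68.9% and 20.7% of all genes. With unrelated or distant names left out, 0 were higher and 8 lower of 13. The LIM homeobox models, which belong to the segmentation and Hox list, TC001291, with 1.17 RPKM in the pupa library and 36.7 in the embryo library, and TC001289, with 1.03 RPKM in pupae and 25 in embryos, were lower. Of 5 tested LIM homeobox models 4 were lower, each by at least 4-fold, and the summed level was 10.04 RPKM in pupae against 107 in embryos. The Olig-related factor TC014712 had 5.16 RPKM in pupae and 100.0 in embryos, 19.4-fold lower (11.5 to 35.2). Achaete-scute (TC008433), the proneural gene, had 11.4 RPKM in pupae against 49.3 in embryos. Asense (TC008437), a neuroblast marker, had 0 RPKM in pupae and 4.38 in embryos.

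Of 3 eye specification genes, picked after their values were seen, eyeless and twin of eyeless were lower in the pupa library and sine oculis was within 2-fold. Eyeless (TC008176), a Pax6 gene at the head of eye development, had 4.91 RPKM in the pupa library and 24.1 in the embryo library. Its paralogue twin of eyeless (TC007409) had 1.21 RPKM in pupae and 19.2 in embryos. Sine oculis (TC030468) had 38 RPKM in pupae against 69 in embryos.

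Of 115 tested genes of the Wnt, Hedgehog, Notch, TGF-beta and EGF pathways, 15 were higher (13%), 22 lower (19.1%) and 23 equal (20%), with a median of -0.24, against -0.17 over all genes. With unrelated or distant names left out, 3 were higher and 8 lower of 42, with a median of -0.42. Wingless (TC014084), the segment polarity Wnt, had 8.58 RPKM in the pupa library and 20.7 in the embryo library. Another Wnt ligand, TC009738, had 24 RPKM in pupae and 102 in embryos, and an FGF8 ligand (TC000278) had 24.1 RPKM in pupae against 123 in embryos. Patched (TC004745), the Hedgehog receptor and itself a target of the pathway, had 22.7 RPKM in pupae and 61.2 in embryos. These ligands and this receptor were at least 2-fold lower. Notch (TC004393), with 129 RPKM in pupae against 99.2 in embryos, and decapentaplegic (TC008466), the BMP ligand, with 34.1 RPKM in pupae and 29.7 in embryos, were within 2-fold and called equal. The Wnt ligands as a whole, 9 tested models, summed to 146 RPKM in pupae against 305 in embryos, with 1 higher and 4 lower.

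Genes of the nervous system were more often lower than higher in the pupa library. Of 191 tested genes for synapses and ion channels, 24 were higher (12.6%, against 16.2% of all genes) and 76 lower (39.8%, against 14.9%), with a median of -0.66. Leaving out unrelated or distant names gave 7 higher and 58 lower of 109, with a median of -1.06. Nicotinic acetylcholine receptors, the main excitatory receptors of the insect brain, were lower in 9 of 12 tested subunits. The beta 1 subunit (TC001432) had 5.13 RPKM in the pupa library and 61.5 in the embryo library, 12-fold lower (8.18 to 18.2). Alpha 1 (TC001018) had 9.31 RPKM in pupae and 69.2 in embryos, and alpha 2 (TC012852) had 11.7 RPKM in pupae against 91.9 in embryos. A single subunit was higher, alpha 10 (TC007155), which had 29.6 RPKM in pupae and 11.9 in embryos, 2.48-fold higher (1.79 to 3.48). The subunits summed to 105 RPKM in pupae against 408 in embryos, with 68.3 in the larval and 101 in the adult library.

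Channels and synaptic proteins showed the same direction. Voltage-gated channels, which carry the action potential and trigger transmitter release, were lower in 14 of 20 tested models and higher in 0, and they summed to 141 RPKM in the pupa library and 484 in the embryo library. The calcium channel TC001338 had 6.4 RPKM in pupae and 41.4 in embryos. Synaptotagmin (TC007227), the calcium sensor of synaptic vesicles, had 25.9 RPKM in pupae against 139.7 in embryos. A Cdk5 activator (TC005715), which drives a neuronal kinase, had 10.7 RPKM in pupae and 107 in embryos, and a dopamine D2-like receptor (TC007490) had 0.83 RPKM in pupae against 10.3 in embryos. A serotonin transporter (TC002347) went the other way, with 9.9 RPKM in pupae and 3.4 in embryos. Among the 258 KEGG and GO terms with 15 to 500 tested genes, the term for excitatory extracellular ligand-gated ion channels had the largest share of lower genes, 14 of 17, with 0 higher.

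Genes for axon guidance and cell adhesion had a median near 0. Of 137 tested members 20 were higher (14.6%, against 16.2% of all genes), 31 lower (22.6%, against 14.9%) and 34 equal (24.8%, against 20.7%), with a median of 0.02. Cadherin-N (TC013227), an adhesion protein of growing axons, had 27.5 RPKM in the pupa library and 74.5 in the embryo library and was lower. Semaphorin-1a (TC014179), a guidance cue, had 168 RPKM in pupae and 84.2 in embryos, just under the threshold (log2 0.99). Midline fasciclin (TC012903), a membrane adhesion protein, had 857 RPKM in pupae against 134 in embryos, 6.39-fold higher (6 to 6.82).

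Of 14 tested collagens, laminins and nidogens, 2 were higher (14.3%), 3 lower (21.4%) and 4 equal (28.6%), against 16.2%, 14.9% and 20.7% of all genes. The fibrillar collagen model TC014637 had 3.64 RPKM in the pupa library and 34.4 in the embryo library. Collagen IV (TC014326), the network collagen of basement membranes, had 89.1 RPKM in pupae and 32.1 in embryos, and nidogen (TC008043), its linker to laminin, had 62.4 RPKM in pupae against 27.2 in embryos.

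Cuticle is made in both stages, a larval one in the egg and an adult one under the pupal case, and most structural proteins differed between the libraries. Of 58 tested structural cuticle proteins 22 were higher (37.9%, against 16.2% of all genes), 14 lower (24.1%, against 14.9%) and only 2 equal (3.45%, against 20.7%). Cuticle protein TC002434 had 74.5 RPKM in the pupa library and 0 in the embryo library, at least 28.3-fold higher when 3 reads are allowed in the embryo library. TC015901 had 137 RPKM in pupae and 2.32 in embryos, and TC001115 had 58.5 RPKM in pupae against 1.03 in embryos. In the other direction, Cuticular protein 66D (TC008767) had 0 RPKM in pupae and 143 in embryos, at least 122-fold lower. TC013128 had 2.39 RPKM in pupae against 147 in embryos, and TC014497 had 4.24 RPKM in pupae and 90.3 in embryos. A second model named Cuticular protein 66D, TC002908, had 178 RPKM in pupae against 48.5 in embryos, so models that share a name went opposite ways. Cuticle proteins are a large family with similar sequences, and unique-read counts may undercount or shift reads among them.

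Osiris proteins are insect membrane proteins expressed in cuticle-forming epithelia, encoded in a gene cluster. Of 8 tested models 0 were higher and 5 were lower. Osiris-like TC011661 had 76.5 RPKM in the pupa library and 4606 in the embryo library, 60.2-fold lower (52.6 to 69.2), and osiris 7 (TC011660) had 139 RPKM in pupae and 2544 in embryos, 18.3-fold lower (16.6 to 20.2). TC011658 had 749 RPKM in pupae against 3079 in embryos. Osiris 18 (TC012820) had 0.367 RPKM in pupae and 46.6 in embryos. Osiris 14 (TC011827), with 2.58 RPKM in pupae against 9.19 in embryos, was lower, while Osiris 2 (TC011657), with 16.4 RPKM in pupae and 25 in embryos, was within 2-fold. The neighbours TC012679 and osiris 16 (TC012680) were close to the embryo level: TC012679 had 1608 RPKM in pupae against 1092 in embryos, and osiris 16 had 74.1 RPKM in pupae and 89.4 in embryos. In the larval library these had 13.7 and 1.43 RPKM and in the adult library 4.61 and 0 RPKM. The family thus held members at like levels in both libraries beside members that were far lower in the pupa library.

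Chitin, the polysaccharide of the cuticle, had genes that, where they differed, were mostly higher in the pupa library. Of 52 tested genes 20 were higher (38.5%, against 16.2% of all genes), 2 lower (3.85%, against 14.9%) and 7 equal (13.5%, against 20.7%), with a median of 0.63. A chitin synthase (TC014634), which makes the polymer, had 113 RPKM in the pupa library and 32.8 in the embryo library, 3.44-fold higher (3.12 to 3.79). Chitinase TC012734, one of the enzymes that cut it, had 168 RPKM in pupae and 11.5 in embryos, and TC009872 had 189 RPKM in pupae against 47.8 in embryos. Hexosaminidase 1 (TC009808), which takes the fragments to single sugars, had 252 RPKM in pupae and 35.5 in embryos. Knickkopf (TC010653), which protects new chitin from chitinases, had 208 RPKM in pupae against 93.7 in embryos. The most abundant chitinase-named model, TC001770, was called equal, with 929 RPKM in pupae and 1125 in embryos, against 347 in the larval and 5.26 in the adult library.

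Tanning genes, which harden and colour the cuticle, were higher in 8 of 19 tested cases and lower in 2, with a median of 0.69. Yellow-c (TC016299), of the yellow family that includes dopachrome conversion enzymes, had 365 RPKM in the pupa library and 21.5 in the embryo library, 17-fold higher (13.7 to 21.4). Yellow-2 (TC003539) had 33 RPKM in pupae and 3.88 in embryos, and yellow-b (TC005480) had 36.5 RPKM in pupae against 7.58 in embryos. Tyrosine 3-monooxygenase (TC002496), the first enzyme of catecholamine synthesis, had 47.1 RPKM in pupae and 16 in embryos. Dopa decarboxylase, the next enzyme, has 2 models: TC013480 had 4.96 RPKM in pupae against 12.7 in embryos, and TC013401 had 4.16 RPKM in pupae and 1.02 in embryos. These went opposite ways. Arylalkylamine N-acetyltransferase (TC001154), which acetylates dopamine for colourless sclerotin, had 14.4 RPKM in pupae against 0.408 in embryos. Laccase 1 (TC000821), a phenol oxidase, had 2.6 RPKM in pupae and 0.736 in embryos.

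**Figure D3:**
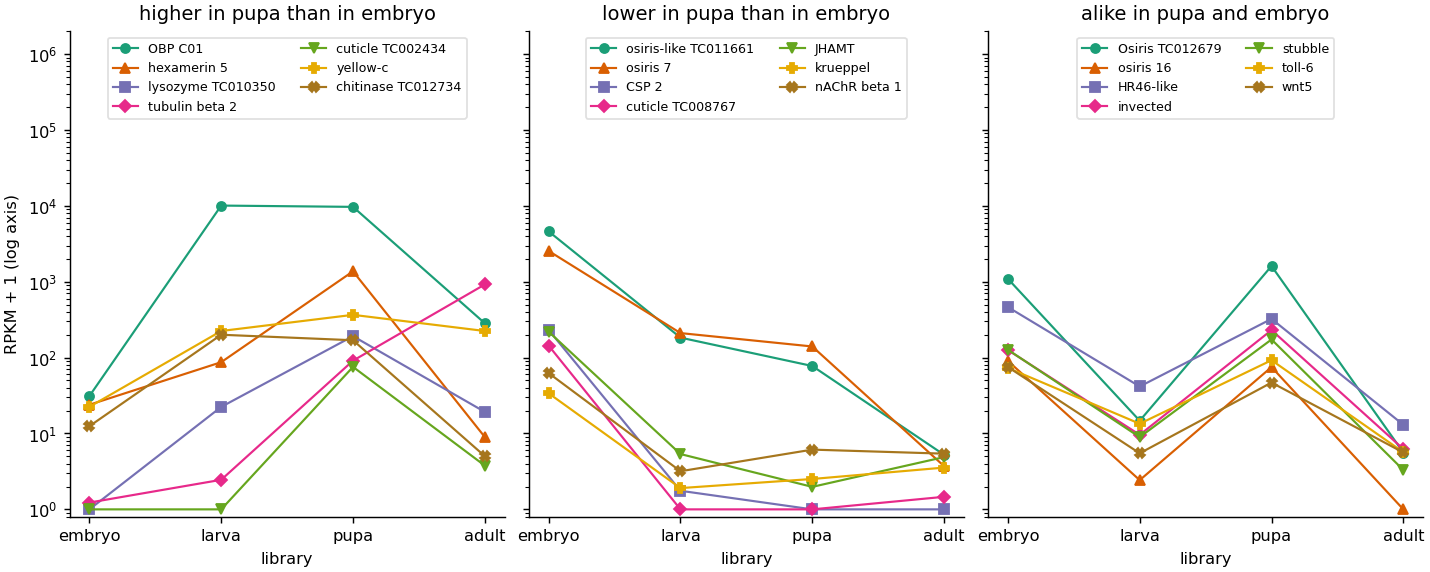
RPKM + 1 on a logarithmic axis in the 4 RNA libraries, in order of development, for 7 genes higher in the pupa than in the embryo library (left), 7 lower (middle) and 7 within 2-fold (right); the genes were picked after their values were seen, and lines only join the points of 1 gene. In the right panel each gene is high in the embryo and pupa libraries and lower in the larval and adult libraries, with Osiris TC012679 at the top of the pupa library.

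Stores and blood proteins separated the stages strongly. Of 13 tested storage and yolk genes 8 were higher and 0 lower, with a median of 1.21. Hexamerins are larval serum proteins that supply amino acids for building the adult. Hexamerin 5 (TC006515) had 1370.4 RPKM in the pupa library and 22.9 in the embryo library, 59.8-fold higher (51.1 to 70.5). Hexamerin 4 (TC005375) had 683 RPKM in pupae and 157 in embryos, with 1652 in the larval library, and hexamerin 1B (TC005377) had 56.6 RPKM in pupae against 11.2 in embryos, with 20318 in the larval library. Arylphorin (TC005376), with 13.1 RPKM in pupae and 10.3 in embryos, and hexamerin 2 (TC006769), with 8.18 RPKM in pupae against 7.2 in embryos, were low in both and within 2-fold, although they had 15723 and 15056 RPKM in the larval library. Hexamerin 5 itself had 86 RPKM in the larval and 7.98 in the adult library.

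Apolipophorin-III (TC015373), a lipid carrier of insect blood, had 2459 RPKM in the pupa library and 286 in the embryo library, 8.59-fold higher. The ferritin subunits TC001092, with 1140.4 RPKM in pupae and 491 in embryos, and TC000476, with 944 RPKM in pupae against 469 in embryos, store iron and were both called higher, TC000476 just past the threshold.

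Immune genes that differed were almost all higher in the pupa library. Of 55 tested antimicrobial and recognition genes 25 were higher (45.5%, against 16.2% of all genes) and 2 lower (3.64%, against 14.9%), with a median of 0.48. Leaving out unrelated or distant names gave 19 higher and 2 lower of 34, with a median of 1.47. Each of the 11 tested thaumatins, defensins, cecropins, tenecin and lysozymes, a group formed with these data in view, was higher. Together they summed to 848 RPKM in the pupa library and 20.6 in the embryo library. Lysozyme TC010350, an enzyme that cuts bacterial cell walls, had 191 RPKM in pupae and 0 in embryos, at least 91.6-fold higher, and its neighbour TC010352 had 132 RPKM in pupae against 0 in embryos. Tenecin 1 (TC010517), a beetle defensin, had 119 RPKM in pupae and 0 in embryos, at least 30.9-fold higher. The thaumatin-like protein TC000517 had 122 RPKM in pupae against 2.11 in embryos. GNBP2 (TC011529), a recognition protein for microbial sugars, had 179.9 RPKM in pupae and 12.6 in embryos. The same 11 genes summed to 2148 RPKM in the larval and 274 RPKM in the adult library, so for them the embryo library was the lowest of the 4. The whole list summed to 2640 RPKM in pupae and 2130 in embryos, with 4825 in the larval and 1545 in the adult library. Over the whole list the adult library was thus the lowest.

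Of 54 tested matrix proteases and inhibitors 23 were higher (42.6%, against 16.2% of all genes) and 5 lower (9.26%, against 14.9%), with a median of 0.65. The 12 equal ones (22.2%) were near the 20.7% of all genes. Serpins, which trap serine proteases and control tanning and immune cascades, were higher in 16 of 24 tested models and lower in 1, and they summed to 2615 RPKM in the pupa library and 882 in the embryo library. Serpin TC005740 had 325 RPKM in pupae and 21.3 in embryos, and TC000760 had 774 RPKM in pupae against 188 in embryos. Serine proteases were higher in 44 of 88 tested models and lower in 14. Serine protease P139 (TC013280) had 178 RPKM in pupae and 2.37 in embryos. Stubble (TC030071-GA), a membrane protease known in Drosophila for the shaping of legs and wings, was called equal, with 172 RPKM in pupae against 126 in embryos. Matrix metalloproteinase 1 (TC014266), which cuts extracellular matrix during tissue remodelling, had 43.1 RPKM in pupae and 9.18 in embryos, 4.69-fold higher (3.56 to 6.27).

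Proteins that carry small molecules had large ratios in both directions. The odorant-binding protein C01 (TC010066), of the minus-C subfamily, had 9696 RPKM in the pupa library and 30.1 in the embryo library, 322-fold higher (235 to 453), and C02 (TC010067) had 1996 RPKM in pupae and 22.1 in embryos. In the larval library C01 had 10082 RPKM and in the adult library 283 RPKM. Chemosensory protein 10 (TC008682) had 373 RPKM in pupae against 7.11 in embryos. Chemosensory protein 2 (TC003085) had 0 RPKM in pupae and 231 in embryos, at least 104-fold lower, and chemosensory protein 7 (TC014534) had 208 RPKM in pupae against 1004 in embryos. Of 35 tested genes 17 were higher, 9 lower and 0 equal. Despite the family names, many members are expressed outside sense organs in insects, and whole-body libraries do not show where. Chemoreceptors themselves were scarce, with 25 of 260 models tested, 3 higher and 5 lower, and their median of -0.50 became 0.026 under median-ratio rescaling.

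Cytochrome P450 enzymes, which oxidise hormones, fats and plant toxins, were higher in 50 of 99 tested models (50.5%, against 16.2% of all genes). They were lower in 13 (13.1%, against 14.9%), with a median of 1.09. In family 6, linked to the breakdown of foreign compounds, 14 of 20 models named by the nr description were higher and 1 lower, and the family summed to 477 RPKM in the pupa library and 81.3 in the embryo library. P450 6BK13 (TC015160) had 230.4 RPKM in pupae and 7.44 in embryos. By KEGG and GO term, P450 family 6 had the largest share of higher genes, 19 of 25, followed by serpin B with 15 of 21. Digestive enzymes counted 51 higher (27.4%, against 16.2% of all genes) and 21 lower (11.3%, against 14.9%) of 186, with a median of 0.12. Sugar transporters were higher in 11 of 23 tested models and lower in 2, but their summed level was 448 RPKM in pupae against 372 in embryos. Catalase (TC011385), which breaks down hydrogen peroxide, had 155 RPKM in pupae and 0.397 in embryos. An ABC transporter of subfamily C (TC014386) had 208 RPKM in pupae against 1.8 in embryos.

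**Figure D4:**
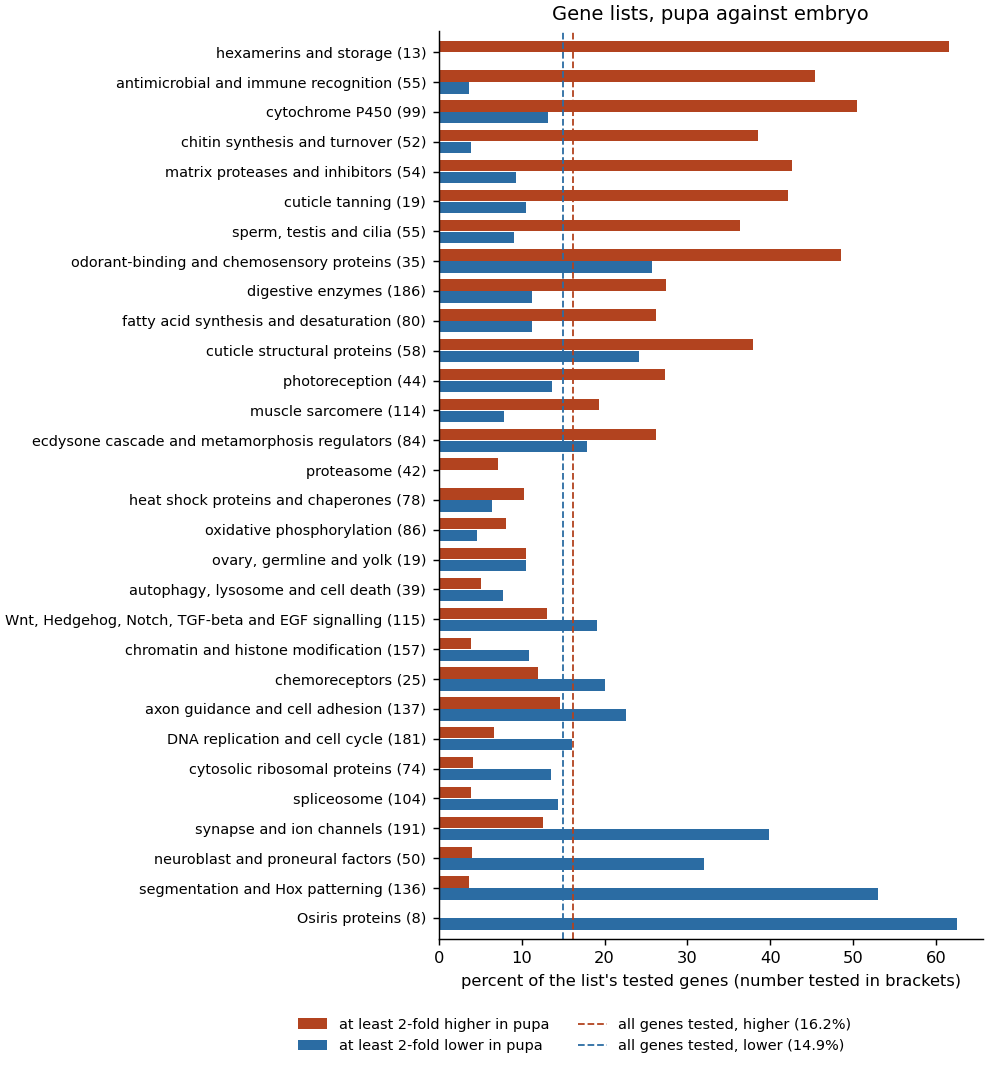
Bars give the percent of each gene list's tested members that were at least 2-fold higher (red) or lower (blue) in the pupa library, ordered by the difference between them; dashed lines mark 16.2% and 14.9%, the shares over all 12146 genes. Storage, immune and P450 lists lie at the top, and synapse, neuroblast, segmentation and Osiris lists at the bottom.

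Lipid genes differed by enzyme. Of 80 tested genes for fatty acid synthesis and desaturation 21 were higher (26.25%, against 16.2% of all genes) and 9 lower (11.25%, against 14.9%). Fatty acid synthase (TC015399) had 128 RPKM in the pupa library and 48.4 in the embryo library, and an elongase (TC016278), which lengthens fatty acids for cuticle hydrocarbons and other lipids, had 102 RPKM in pupae and 13.9 in embryos. Acyl-CoA reductases, which make fatty alcohols, were on both sides. TC015380 had 19.2 RPKM in pupae against 406 in embryos, 21.2-fold lower (17.4 to 26.1), whereas TC011214 had 15 RPKM in pupae and 0 in embryos. Desaturase TC015395 had 0.275 RPKM in pupae against 44.8 in embryos.

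Of 114 tested genes on the muscle list 83 were within 2-fold, a share near the 68.9% of all genes. Of the list 22 were higher (19.3%, against 16.2% of all genes), 9 lower (7.89%, against 14.9%) and 33 equal (28.9%, against 20.7%), with a median of -0.01. With unrelated or distant names left out 3 were higher, 2 lower and 9 equal of 19. Troponin T (TC000933), of the calcium switch on the thin filament, had 2108 RPKM in the pupa library and 2588 in the embryo library, and tropomyosin (TC011461) had 602 RPKM in pupae and 678 in embryos. Myosin light chain 4 (TC001048) had 2356 RPKM in pupae against 3062 in embryos, and alpha-actinin (TC007894), which anchors thin filaments, had 203 RPKM in pupae and 201 in embryos. These sarcomere genes differed by less than 1.5-fold. Among the 22 higher members were myosin light chain 1 (TC001049), with 218 RPKM in pupae against 4.83 in embryos, and myosin heavy chain (TC005924), with 627 RPKM in pupae and 202 in embryos, 3.1-fold higher (3 to 3.2). In the adult library myosin light chain 1 had 9319.9 RPKM and in the larval library 5.48 RPKM, so the pupa library held it at a level between the embryo and the adult.

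Of 44 tested genes of the photoreception list 12 were higher (27.3%, against 16.2% of all genes) and 6 lower (13.6%, against 14.9%). Of the 7 with close names 3 were higher and 2 lower. Arrestin 2 (TC009551), which shuts off activated rhodopsin, had 63.6 RPKM in the pupa library and 16.1 in the embryo library, with 295 in the adult library. A further arrestin model (TC004401), with 10.01 RPKM in pupae and 36.9 in embryos, and retinal degeneration C (TC007143), a phosphatase of rhodopsin in Drosophila, with 9.5 RPKM in pupae against 22.1 in embryos, were the 2 lower ones. C-opsin (TC007259), an opsin of the ciliary type, had 45.6 RPKM in pupae and 12.7 in embryos. Rhodopsin 1/6-like (TC013765), a visual pigment of the compound eye, had 3.35 RPKM in pupae against 0.542 in embryos, with 137 in the adult library. Arrestin 1 (TC013804) had 9.36 RPKM in pupae and 7.07 in embryos.

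Some genes known from the testis were higher in the pupa library. The testis-specific serine kinase model TC009447 had 15 RPKM in the pupa library and 0 in the embryo library, with 304 in the adult library. Tubulin beta 2 (TC009035), the name of the testis-specific tubulin of the sperm tail in Drosophila, had 90.1 RPKM in pupae and 0.229 in embryos, with 919 in the adult library. Axonemal dynein heavy chain TC009719, a motor of the sperm tail and of cilia, had 4.82 RPKM in pupae against 0.75 in embryos, and tektin (TC005997) had 8.38 RPKM in pupae and 3.51 in embryos. Doublesex (TC010597), the sex-determining transcription factor, had 19 RPKM in pupae against 1.47 in embryos. Of 55 tested genes of the sperm, testis and cilia list 20 were higher and 5 lower, with a median of 0.37.

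Some models with the names of housekeeping genes also had few or no reads in the embryo library and their highest level in the adult library; they were chosen after their values were seen. Cytochrome c oxidase subunit VIIa model TC008031 had 14.2 RPKM in the pupa library and 0 in the embryo library, with 198 in the adult library. A succinate dehydrogenase B model (TC014418) had 7.66 RPKM in pupae and 0 in embryos, and a proteasome subunit model (TC006616) had 11 RPKM in pupae against 0 in embryos. Other models carry the same names, and unique-read counts are low for near-identical copies. Alpha-tubulin TC011027 had 29.6 RPKM in pupae and 6.99 in embryos, with 402 in the adult library.

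Of 19 tested genes for ovary, germline and yolk 2 were higher, 2 lower, 15 within 2-fold and 8 equal, where 68.9% of all genes were within 2-fold. Nanos (TC030446), a translational repressor of germ cells, had 20.2 RPKM in the pupa library and 7.75 in the embryo library, and tudor (TC003753), a germ granule protein, had 70.3 RPKM in pupae and 32.8 in embryos. Bicaudal-C (TC005315), an RNA-binding protein of oogenesis, had 0.122 RPKM in pupae against 7.86 in embryos.

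Cytosolic ribosomal proteins, the protein part of the ribosome, summed to 63088 RPKM in the pupa library and 112713 in the embryo library. They had a median of -0.82, with 3 higher (4.05%), 10 lower (13.5%) and 2 equal (2.7%) of 74. Of all genes 16.2% were higher, 14.9% lower and 20.7% equal. Under median-ratio rescaling, which moves the median over all genes up by 0.17, 0 of the ribosomal proteins were lower. At the main setting their log2 ratios had quartiles of -0.92 and -0.73, near the threshold. Their models are short, and models under 600 bases had a median of -0.28 over all genes tested, against -0.06 for the longest class of models; the part of length in the ribosomal median was not tested. Spliceosome genes had a median of -0.52, with 4 higher (3.85%) and 15 lower (14.4%) of 104. DNA replication and cell cycle genes had a median of -0.33, with 12 higher (6.63%), 29 lower (16%) and 38 equal (21%) of 181. For these 3 lists the lower share was thus near that of all genes, and the higher share was smaller. Cyclins, which drive the cell cycle, were lower in 3 of 14 models and higher in 0, while the mini-chromosome maintenance proteins, which unwind DNA at replication origins, were within 2-fold in 10 of 10. Histone H2A (TC000931) had 129 RPKM in pupae and 329.7 in embryos, and most replication-dependent histone messages of animals lack the poly(A) tail on which these libraries were selected.

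Equal calls depend on level: 33.2% of genes at 20 to 100 RPKM and 44.6% at 100 RPKM and over were equal, against 20.7% of all genes. All 40 tRNA synthetases, which charge tRNAs with amino acids, were within 2-fold, and 21 of them were equal, with summed levels of 1711 RPKM in the pupa library and 1850.3 in the embryo library. The proteasome had 23 equal (54.8%), 3 higher (7.14%, against 16.2% of all genes) and 0 lower (against 14.9%) of 42. One higher member, the regulatory subunit N6 (TC012621), had 633 RPKM in pupae and 154 in embryos. Of 86 tested oxidative phosphorylation genes 22 were equal (25.6%), near the share of all genes, 7 higher and 4 lower. Of 78 heat shock and chaperone genes 32 were equal (41%), 8 higher (10.3%) and 5 lower (6.41%). Chromatin and histone modification genes counted 40 equal (25.5%), 6 higher (3.82%, against 16.2% of all genes) and 17 lower (10.8%, against 14.9%) of 157. Autophagy, lysosome and cell death genes counted 13 equal (33.3%), 2 higher (5.13%) and 3 lower (7.69%) of 39. The median of the last list was -0.25.

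The most abundant equal genes included genes of translation and the cytoskeleton. Elongation factor 1-alpha (TC001880) had 3011 RPKM in the pupa library and 2471 in the embryo library, and the poly(A)-binding protein (TC005185) had 1460.4 RPKM in pupae and 1451 in embryos. Alpha-tubulin 1 (TC004873) had 2514 RPKM in pupae against 2094 in embryos, beta-1 tubulin (TC009589) had 1376 RPKM in pupae and 1365 in embryos, and actin 5C (TC006296) had 2103 RPKM in pupae against 2169.8 in embryos. Among terms, egg chamber formation from the germarium had the largest share of equal genes, 12 of 16, followed by the aminoacyl-tRNA ligases with 21 of 32.

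**Figure D5:**
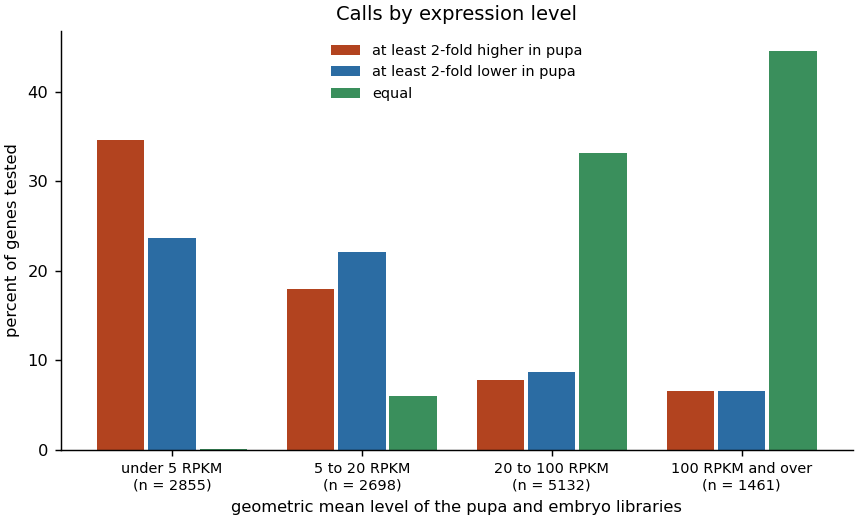
Bars give the percent of genes called higher, lower or equal in the pupa against the embryo library, in 4 classes of the geometric mean RPKM of both libraries. The equal share was 0.105% under 5 RPKM and 44.6% at 100 RPKM and over, where 6.57% were higher and 6.57% lower.

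How often a gene could be called equal depended on its read count. Under 5 RPKM 34.6% of genes were higher and 23.7% lower and only 0.105% equal, because few reads leave wide intervals, and at 20 to 100 RPKM 33.2% were equal. A further 5845 genes (48.1%) were within 2-fold without a call of equal. Some of them had intervals that left out 1, and so a modest difference beyond counting error. HR46-like was 1.43-fold lower in the pupa library (1.35 to 1.52), and Osiris TC012679 was 1.47-fold higher (1.4 to 1.55). Genes called equal can have such intervals too, as the call asks only for an interval within 1.5-fold. Stubble, called equal, was 1.37-fold higher (1.27 to 1.48). Where the interval holds 1, the depth does not decide between equality and a modest difference. The 8 Hox models and the 16 nuclear receptor models, many of them weakly expressed, held 0 equal calls. Of these, 6 Hox models were lower (75%, against 14.9% of all genes). Among the nuclear receptors 3 were higher and 3 lower (18.75% each), near the 16.2% and 14.9% of all genes. The other 2 Hox models and 10 nuclear receptors were within 2-fold without a call of equal.

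A small set of genes marked both non-feeding stages. In 54 genes (0.445% of those tested) the pupa and embryo libraries were within 2-fold of each other and each at least 4-fold above the larval and adult libraries, on the (RPKM + 1) scale, with at least 10 RPKM in the pupa and the embryo library. They took 1.13% of pupal and 1.06% of embryo reads, and 23 of them were equal. Beside TC012679, osiris 16, HR46-like, invected and stubble, they included fringe (TC011785), a modifier of Notch, with 108 RPKM in the pupa library and 123 in the embryo library. Toll-6 (TC004895), a Toll-family receptor, had 91.4 RPKM in pupae and 72.2 in embryos, and wnt5 (TC009318), an axon guidance Wnt, had 45.9 RPKM in pupae against 74.2 in embryos. Pipe (TC002293), a sulfotransferase known from the patterning of the Drosophila egg, had 141 RPKM in pupae and 131 in embryos. Serine protease P87 (TC008659) had 169 RPKM in pupae against 139 in embryos. Only 19 of the 54 have a close name, and among the rest TC011659 had 1475 RPKM in pupae and 1116 in embryos, against 12.6 in the larval and 5.17 in the adult library. The reverse pattern, both at least 4-fold below the larval and adult libraries, held for 96 genes, which took 0.0609% of pupal and 0.0554% of embryo reads. Only 1 of these was equal. Many had few reads in both libraries, and some were within 2-fold only on the (RPKM + 1) scale. TC015339 had 24 pupal and 2 embryo reads, an RPKM ratio of 10.6 (2.63 to 92.5).

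Many of the genes that differed had no name. Of 3563 tested genes with no descriptive name 773 were higher (21.7%), 703 lower (19.7%) and 421 equal, and they took 19.5% of pupal and 15.6% of embryo reads. TC006664 had 34348 RPKM in the pupa library and 4407 in the embryo library, 7.79-fold higher (7.66 to 7.93). TC003047 had 19944 RPKM in pupae and 94.1 in embryos, and TC016319 had 5965 RPKM in pupae against 15.6 in embryos. On the embryo side, TC011602 had 231 RPKM in pupae and 1046 in embryos, and TC002837 had 77.2 RPKM in pupae against 711 in embryos. Of these 5 genes, the 3 on the pupal side reached higher levels than the 2 on the embryo side.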

How the data were processed

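The RNA libraries were made from polyadenylated RNA, per the labels' protocols, with no step that marks the strand, so sense and antisense reads are counted together. The authors' counts are of uniquely placed reads for each gene model, per the file headers, and the deposited RPKM values equal these counts divided by model length and library total. The percent of a model under reads, also deposited, served only to compare libraries at 20 to 40 reads per kilobase, where its median was 62.5% in the pupa and 61.5% in the embryo library. CASAVA 1.8.2, BSMAP 2.73 and SAMtools 0.1.19 are named for the series, per the submitters' processing notes; for the RNA reads, aligner, counter, build and annotation were not given in the sources used. Unique reads undercount near-identical genes, and 41 models carry a GA suffix and can overlap other models. Model lengths are multiples of 3 in 99.4% of cases.

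An unlisted gene was taken as 0 reads, and genes with at least 1 RPKM in the pupa or embryo library were compared as log2 of the ratio of (RPKM + 1), which understates differences of weakly expressed genes. Printed folds are ratios of RPKM with exact conditional binomial 95% intervals, which cover counting error only, and for 0 reads the bound uses a floor of 3 reads per library. Names come from the nr description, and otherwise from the best KEGG match, called distant under 0.5 bits per residue. Of the genes 29.4% are named by nr and 41.2% by KEGG. The 30 gene lists were matched by words in these names and hold unrelated genes; versions without unrelated or distant names were chosen after seeing the data. The members, lists and thresholds were all chosen with earlier results of these data known.

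Genes were named by a rule: the 15 largest ratios in each direction, up to 5 members per list and direction and its 5 most abundant, any hormone, tanning, Osiris or photoreception gene, the 20 most abundant equal genes and unnamed genes by ID. Members of smaller families and of the set alike in both stages were added, and the word patterns of those families corrected, after their values were seen. Alternatives were a pseudocount of 0.1 or 5, no filter or one of 5 RPKM, median-ratio and TPM scaling, totals without the 20 most abundant genes of each library, other thresholds, and leaving out models under 300 bases. The steps were tested on simulated data. The software was matplotlib 3.10.9, scipy 1.17.1, pandas 2.3.3 and numpy 2.4.6 under Python 3.11.15.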

Additional observations from a re-analysis of the deposited data

How the results depend on the processing

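The counts of higher and lower genes in the pupa library moved by over 1.5 times under 3 settings. With a pseudocount of 5 there were 1121 higher and 1000 lower genes, at a 4-fold threshold 837 and 526, and with the counting interval wholly beyond 2-fold 1107 and 829. Equal genes numbered 656 when equality meant an interval within a narrower margin. Under the other settings run the 3 counts stayed within 1.5 times, but median-ratio rescaling gave 2243 higher and 1500 lower genes, so that higher genes made up 59.9% of the calls against 52.1%. The median of the chemoreceptor list turned from -0.50 to 0.026 under that rescaling, and the count of lower ribosomal proteins from 10 to 0. The cause was not tested. At the main setting the ribosomal log2 ratios had quartiles of -0.92 and -0.73, near the threshold, and the rescaling moved the median over all genes up by 0.17. List medians and member counts were rerun only under the other scalings, a pseudocount of 0.1, nr names alone, and without unrelated or distant names. Of the medians of the lists under these settings 162 stayed within 0.25, 17 moved by more and 1 was counted as changing sign. A change of sign was counted only for medians of at least 0.25 in size. Medians nearer 0 could change sign uncounted, as that of the ovary, germline and yolk list, -0.07 and, without unrelated or distant names, 0.04. The counts of higher list members stayed within 1.5 times in 146 cases and moved by more in 34, and those of lower members stayed in 135 and moved in 45. Of the log2 ratios of named genes 2648 kept their side of the threshold, 92 lost a call and 40 gained one. Of those past 2-fold at the main setting 0 changed direction. Changes of sign among smaller ratios were not counted. No paired analysis was possible because each stage has 1 library. For the same reason no difference has a replicate check, and differences between animals or collections cannot be told apart from those between stages. Depth limits genes under 5 RPKM, where 0.105% could be called equal.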

Other observations

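Some large ratios belong to genes that fall in no group described above. A calmodulin (TC012269), a calcium-binding protein, had 215 RPKM in the pupa library and 0 in the embryo library, at least 107-fold higher, with 559.8 in the adult library. TC014878, whose best KEGG match is distant, had 0.741 RPKM in the pupa library and 657 in the embryo library, TC012990 had 2.35 RPKM in pupae against 433 in embryos, and TC014742 had 0 RPKM in pupae against 183 in embryos. These were high in the embryo library and near 0 in the pupa library. In the larval library they had 2.66, 26.2 and 0.966 RPKM, and in the adult library 0.882, 57.7 and 1.68 RPKM.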
